A study of Americamysis bahia with 35 samples.

Results

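Whole juvenile mysids (Americamysis bahia) kept for 96 h in weathered tire-wear particle leachate at 2.68 g/L were compared with mysids kept in the same leachate at 0.67 g/L, a 4-fold range of concentration. The libraries were chosen by their titles, which put 5 at each concentration, 10 of the 35 libraries of the study. The other 25 libraries came from weathered leachate at 1.34 g/L, from unweathered leachate at 0.27, 0.54 and 1.08 g/L, and from a control at 0 g/L in 25 ppt seawater, with 5 libraries in each group. All groups carried the age label 5 days and were exposed through the water at 25 °C under 16 h of light and 8 h of dark, in filtered seawater of 25 ppt, with Artemia nauplii as food every 12 h. RNA came from the whole body, was enriched for poly(A) RNA and entered each library at 250 ng. Whether the 5 libraries of each group stem from different animals, from pooled animals or from 1 tank is not stated in the labels. The p-values therefore reflect the spread among these libraries and no more, and part of that spread may be technical. No control library enters the difference between 2.68 and 0.67 g/L, although all 35 libraries share the estimate of the spread behind its test.

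Mysids are shrimp-like crustaceans that brood their young and moult through a short juvenile phase, and juveniles are a standard test animal for coastal waters. Tire-wear particles are rubber fragments shed by tires on roads. In water they release a mixture of rubber additives, metals and oils, and the make-up of that mixture can change as the particles weather. In whole-body RNA from any tissue mixture, fewer cells of a type and less RNA per cell cannot be told apart.

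Abundance was measured for 34903 transcripts of a Trinity assembly, grouped by their IDs into 22900 Trinity genes, of which 27420 transcripts and 17990 genes had enough counts to be tested. The files used here give no gene names or sequences for these IDs, so no function could be assigned, no tissue marker or pathway list could be checked, and transcripts not named by ID are told apart by their length in bases. Levels are given in CPM, counts scaled to library size and between libraries by TMM factors. Where 2 transcripts are compared with each other, levels are given in TPM, which is also scaled by transcript length. A transcript or gene was called where the adjusted p of edgeR's quasi-likelihood test, by Benjamini-Hochberg over all features tested, was under 0.05.

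Few transcripts differed between the concentrations, and most of those were higher at 2.68 g/L. Of 27420 transcripts, 12 were called (0.0438%), with 9 higher (0.0328%) and 3 lower (0.0109%) at 2.68 g/L than at 0.67 g/L. The rises ran from 1.71-fold to 12.0-fold with a median of 3.38-fold, and the falls from 2.57-fold to 4.05-fold with a median of 4.02-fold. At an unadjusted p under 0.05 stood 1631 transcripts, 5.95% of those tested, where 1371 would be 5%. That wider group split almost evenly, with 857 higher and 774 lower. The median log2 change over all tested transcripts was 0.01.

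The count of 12 depended on how the test was run. It was 0 when edgeR was fitted to the 10 compared libraries alone (984 at an unadjusted p under 0.05), 73 with DESeq2, and between 3 and 9 when 1 of the 10 libraries was left out, where leaving out any library except 0.67 g/L replicate 5 moved it by more than 1.5 times. In every one of those 10 fits, 3 transcripts were called, namely TRINITY_DN8241_c0_g1_i2, TRINITY_DN6098_c0_g1_i1 and a transcript of 14190 bases.

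The 2 transcripts with the largest rise were low in every library at 0.67 g/L and several-fold higher in every library at 2.68 g/L. TRINITY_DN8241_c0_g1_i2, of 532 bases, stood at 5.10, 5.02, 6.37, 1.86 and 3.47 CPM in the 5 libraries at 0.67 g/L and at 21.4, 46.7, 46.0, 74.0 and 74.0 CPM at 2.68 g/L. The lowest library at 2.68 g/L was thus more than 3-fold above the highest at 0.67 g/L. This was a log2 change of 3.58 (SE 0.53), a 12.0-fold rise with edgeR's adjusted p at 0.00121. It made up 90.2% (0.67 g/L) and 88.9% (2.68 g/L) of the counts of its Trinity gene. The sum over both isoforms of the gene rose by a log2 change of 3.66 (SE 0.52, edgeR's adjusted p 0.000462).

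TRINITY_DN6098_c0_g1_i1, the single isoform of its Trinity gene at 889 bases, had 5.65, 6.12, 13.4, 4.94 and 4.44 CPM at 0.67 g/L and 28.7, 51.7, 39.1, 104 and 84.1 CPM at 2.68 g/L. The groups did not overlap, and the value of 13.4 CPM in replicate 3 stood apart from the other 4 libraries at 0.67 g/L. This gave a log2 change of 3.15 (SE 0.45), an 8.89-fold rise (edgeR's adjusted p 0.00106). Scaled by length, the mean of TRINITY_DN8241_c0_g1_i2 at 2.68 g/L was 266 TPM (SD 105, n = 5) and that of TRINITY_DN6098_c0_g1_i1 was 159 TPM (SD 80.9, n = 5), against 20.5 TPM (SD 9.45) and 16.7 TPM (SD 10.4) at 0.67 g/L. At 2.68 g/L both were lowest in replicate 1 and highest in replicates 4 and 5.

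Among called transcripts whose mean log2 CPM in the 10 libraries was 1 or more, the 2 that fell had higher levels by length at 0.67 g/L than the 2 risers above, with means of 53.8 TPM (SD 19.4, n = 5) for TRINITY_DN13160_c0_g1_i5 and 3054 TPM (SD 602, n = 5) for TRINITY_DN9575_c0_g2_i1. TRINITY_DN13160_c0_g1_i5, of 3178 bases, had 95.1, 123, 102, 54.9 and 133.6 CPM at 0.67 g/L and 31.8, 24.7, 24.5, 22.7 and 22.1 CPM at 2.68 g/L. The groups did not overlap, and the 5 libraries at 2.68 g/L lay closer together than those at 0.67 g/L, with SDs of 3.85 and 30.5 CPM. Its log2 change was -2.02 (SE 0.39), a 4.05-fold fall (edgeR's adjusted p 0.0433).

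TRINITY_DN9575_c0_g2_i1, of 948 bases, was the most abundant of the 12 in TPM at both concentrations. It stood at 2423, 1826, 1604, 1250 and 1929 CPM at 0.67 g/L and at 746, 854, 661, 732 and 528 CPM at 2.68 g/L. Every library at 2.68 g/L was below the lowest at 0.67 g/L. This was a log2 change of -1.36 (SE 0.26), a 2.57-fold fall (edgeR's adjusted p 0.0433). Each of the 2 falls named here was no longer called with the 10 libraries alone (edgeR's adjusted p 0.0536 for TRINITY_DN13160_c0_g1_i5 and 0.0957 for TRINITY_DN9575_c0_g2_i1) or in 9 of the 10 fits with a library left out.

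**Figure D1:**
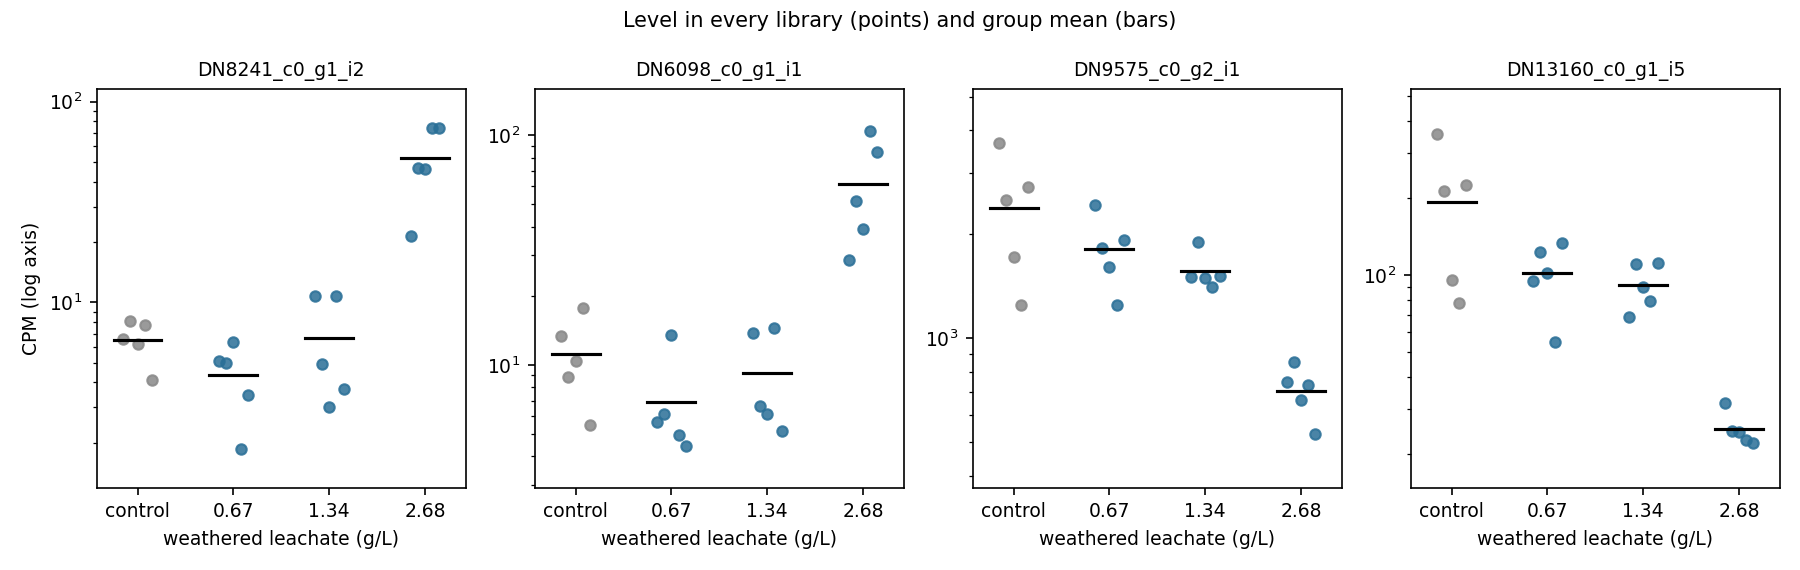
Level in CPM (log axis) of the 4 transcripts named by ID in each library of the control and of weathered leachate at 0.67, 1.34 and 2.68 g/L; points are libraries and bars are group means. For each transcript the 5 libraries at 2.68 g/L lie wholly above or wholly below the 5 at 0.67 g/L, and the 5 at 1.34 g/L overlap the range of those at 0.67 g/L.

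The transcript with the smallest p changed little in size and varied little between libraries. The transcript of 14190 bases, the longest of the 12, stood at 261, 234, 284, 247 and 263 CPM at 0.67 g/L and at 498, 413, 481, 433 and 373 CPM at 2.68 g/L. The groups did not overlap, the log2 change was 0.77 (SE 0.10), a 1.71-fold rise, and edgeR's adjusted p was 0.000216.

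A pair of isoforms of 1 Trinity gene, of 1118 and 808 bases, also rose by less than 2-fold. The isoform of 1118 bases went from a mean of 244 CPM at 0.67 g/L to 426 CPM at 2.68 g/L, and that of 808 bases from 243 to 420 CPM. Their log2 changes were 0.80 (SE 0.15) and 0.79 (SE 0.15), each with edgeR's adjusted p at 0.0433. The sum over the 4 tested isoforms of the gene gave 0.73 (SE 0.15). Each of the 2 isoforms was called in 1 of the 10 fits with a library left out. Their CPM values in each library were close to each other. Because kallisto divides reads between similar isoforms, the 2 calls cannot be taken as independent of each other. How alike the 2 isoforms are in sequence was not tested.

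The other 4 risers had log2 changes between 1.15 and 1.80, each with edgeR's adjusted p at 0.0433. Of the 10 fits with a library left out, 0 called the transcript of 699 bases and 1 that of 787 bases. Those of 644 and 1325 bases were each called in 2. With the 10 libraries alone, edgeR's adjusted p ran from 0.534 (644 bases) to 0.750 (787 bases). The transcript of 699 bases had 1.90, 11.7, 10.1, 13.5 and 10.7 CPM at 0.67 g/L and 45.9, 39.4, 29.2, 24.2 and 28.6 CPM at 2.68 g/L, with no overlap. The transcript of 787 bases had 44.8, 32.9, 20.4, 23.1 and 40.9 CPM at 0.67 g/L and 178, 143, 124, 29.4 and 72.8 CPM at 2.68 g/L. It was the single called transcript whose groups overlapped, because replicate 4 at 2.68 g/L lay within the range at 0.67 g/L. The transcripts of 644 and 1325 bases had means of 7.89 and 7.97 CPM at 0.67 g/L and of 27.2 and 17.7 CPM at 2.68 g/L, without overlap.

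The third fall was a low isoform of 1985 bases, with 0.651, 0.881, 0.650, 0.737 and 0.370 CPM at 0.67 g/L and 0.175, 0.0815, 0.155, 0.150 and 0.240 CPM at 2.68 g/L. Between 1.87 and 20.4 estimated counts per library stood behind these values. Its log2 change was -2.01 (SE 0.40, edgeR's adjusted p 0.0438), while its Trinity gene as a whole had a log2 change of 0.03 (SE 0.11). Its share of the gene's counts had a mean of 7.19% at 0.67 g/L and 1.66% at 2.68 g/L. The test of isoform shares described below did not call this gene.

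In 11 of the 12 called transcripts the 2 groups did not overlap in CPM, 8 higher and 3 lower, where 0.861% of all tested transcripts had groups that did not overlap (0.529% higher, 0.332% lower). Tested transcripts were ranked by total counts over all 35 libraries, which reflect reads rather than level by length. By that rank 11 of the 12 were among the highest 6855, and the low isoform of 1985 bases was among the lowest 6855. The median length of the 12 was 918.5 bases, against 1911 bases for the tested transcripts. Of the 12, 9 changed at least 2-fold (6 higher, 3 lower). An adjusted p under 0.1 was reached by 18 transcripts and under 0.2 by 33, and the first beyond the threshold stood at 0.0613.

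The libraries at 2.68 g/L did not rank in one order across the risers. Replicate 4 was highest and replicate 1 lowest for 3 of the 9, and replicate 1 was highest and replicate 4 lowest for 2 of the 9. Within a group, the ratio of the highest to the lowest library had a median of 2.29 over the 12 transcripts at both concentrations and reached 6.05 at 2.68 g/L and 7.12 at 0.67 g/L.

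**Figure D2:**
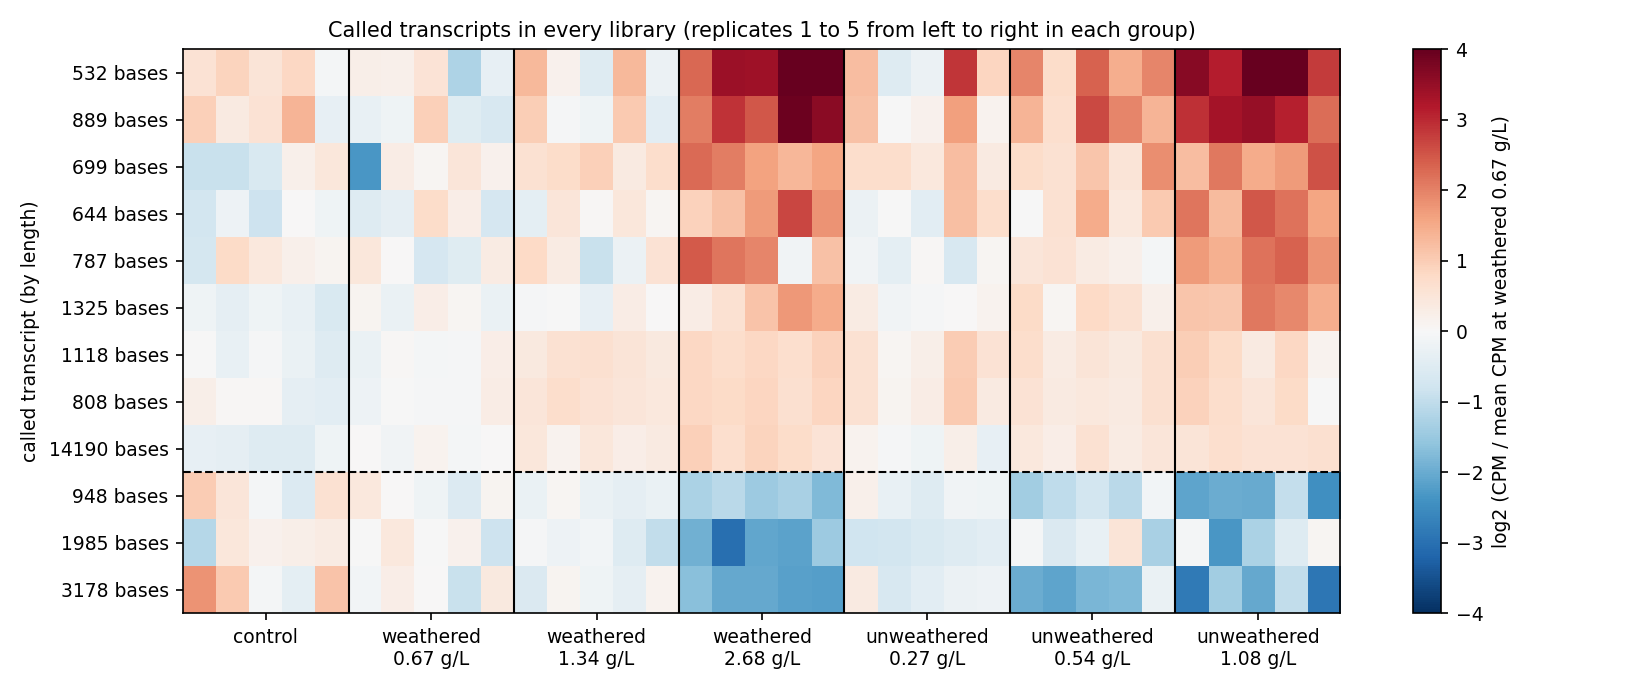
Level of the 12 called transcripts, named by length, in all 35 libraries, as log2 of CPM over the mean at weathered 0.67 g/L; replicates 1 to 5 run from left to right in each group, risers stand above the dashed line and falls below it. The columns of weathered 2.68 g/L are red for the 9 risers, apart from replicate 4 for the transcript of 787 bases, and blue for the 3 falls, and those of unweathered 1.08 g/L have the same colour for most of them.

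Summed over isoforms, 14 Trinity genes of 17990 were called (0.0778%), 12 higher (0.0667%) and 2 lower (0.0111%) at 2.68 g/L. The rises had a median of 3.32-fold, 12 of the 14 genes changed at least 2-fold, and 7 had 1 isoform in the files. In 12 of the 14 the groups did not overlap in CPM (10 higher, 2 lower), against 0.917% of all genes tested (0.556% higher, 0.361% lower). The 2 genes that fell are those of TRINITY_DN13160_c0_g1_i5 and TRINITY_DN9575_c0_g2_i1. The count was 4 with the 10 libraries alone, 40 with DESeq2 and 6 to 19 with 1 library left out. It moved by more than 1.5 times without 0.67 g/L replicate 2, 4 or 5 (6, 9 and 8 genes) and without 2.68 g/L replicate 2, 3 or 5 (8, 7 and 7 genes).

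Of the 14 genes, 10 held a called transcript and 4 did not. All 10 tested isoforms of those 4 genes were higher at 2.68 g/L. The gene with 4 tested isoforms had 28.7, 32.9, 20.9, 21.0 and 34.9 CPM at 0.67 g/L and 57.6, 89.6, 164, 68.8 and 120 CPM at 2.68 g/L, for a log2 difference of 1.85 (SE 0.32, edgeR's adjusted p 0.00828). The gene with 3 tested isoforms had 5.97, 4.48, 6.89, 4.86 and 5.94 CPM at 0.67 g/L and 10.4, 17.2, 20.2, 25.0 and 22.4 CPM at 2.68 g/L, for a log2 difference of 1.76 (SE 0.31, edgeR's adjusted p 0.00942). Neither overlapped between the groups.

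The third of these genes, with 2 isoforms, had 344, 326, 229, 185 and 417 CPM at 0.67 g/L and 376, 609, 1072, 543 and 956 CPM at 2.68 g/L. Its groups overlapped through replicate 1 at 2.68 g/L (log2 change 1.24, SE 0.25, edgeR's adjusted p 0.0361). The fourth, with 1 isoform, rose from a mean of 0.723 CPM (SD 0.337, n = 5) to 5.04 CPM (SD 2.76, n = 5), without overlap, at an adjusted p of 0.0491 in edgeR. Its call does not come from a sum over isoforms, and in the fit on transcripts edgeR's adjusted p was 0.0825.

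Isoform shares within a Trinity gene were tested for the 5857 genes with at least 2 tested isoforms, with edgeR's diffSpliceDGE. The test called 3 genes (0.0512%), and 137 had an unadjusted p under 0.05. None of the 3 changed as a sum, with log2 changes of -0.08, 0.01 and -0.16. Each call rested on 1 isoform that was listed at or near 0 throughout one group. An isoform of 2218 bases had at most 0.00016 estimated counts in any library at 0.67 g/L and 0, 17.2, 53.8, 39.3 and 0 estimated counts at 2.68 g/L. An isoform of 2778 bases was listed at 0 in all 5 libraries at 2.68 g/L and at 14.0, 0, 0, 37.2 and 29.4 estimated counts at 0.67 g/L. The third was listed at 0 in all 5 libraries at 0.67 g/L and had 8.15 and 129 estimated counts in 2 libraries at 2.68 g/L, the others there being at 0. All 3 calls were lost when edgeR was fitted to the 10 libraries alone, and leaving out 1 library gave between 0 and 2 calls, with 0 without 0.67 g/L replicate 3, 4 or 5 and 1 without 0.67 g/L replicate 1 or 2 or 2.68 g/L replicate 3 or 4.

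The intermediate concentration splits the range into 2 steps, of which the upper spans the larger difference in g/L. The 2 steps were not tested against each other. Between 0.67 and 1.34 g/L edgeR called 0 of 27420 transcripts (0.00%; 828 at an unadjusted p under 0.05; DESeq2 called 18) and 0 of 17990 genes (0.00%; 548 at an unadjusted p under 0.05; DESeq2 called 1). Between 1.34 and 2.68 g/L it called 2 transcripts (0.00729%), TRINITY_DN8241_c0_g1_i2 with adjusted p 0.0274 and TRINITY_DN6098_c0_g1_i1 with adjusted p 0.0192, and 6 genes (0.0334%), all higher at 2.68 g/L. Both transcripts and 4 of the 6 genes were also called between 0.67 and 2.68 g/L. These comparisons share libraries with the one from 0.67 to 2.68 g/L. The 2 calls fell to 0 without 1.34 g/L replicate 2, 3 or 5 or 2.68 g/L replicate 4, to 1 without 2.68 g/L replicate 3, and rose to 4 without replicate 1 of either group, while DESeq2 called 46. With edgeR fitted to the 1.34 and 2.68 g/L libraries alone neither rise was called, 1 other transcript was called lower at 2.68 g/L, and 4 genes were called (2 higher, 2 lower), 1 of them among the 6. The 6 genes became 2 without 1.34 g/L replicate 2 or 5, 3 without 2.68 g/L replicate 5 and 10 without 2.68 g/L replicate 1.

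For TRINITY_DN8241_c0_g1_i2 the libraries at 1.34 g/L stood at 10.8, 4.94, 3.03, 10.8 and 3.70 CPM, in part within the range at 0.67 g/L and all below the lowest value at 2.68 g/L. TRINITY_DN6098_c0_g1_i1 had 13.8, 6.65, 6.10, 14.4 and 5.15 CPM there, again all below the lowest library at 2.68 g/L. TRINITY_DN9575_c0_g2_i1 had a mean of 1565 CPM (SD 192, n = 5) at 1.34 g/L, beside 1806 CPM (SD 432) at 0.67 g/L and 704 CPM (SD 120) at 2.68 g/L. TRINITY_DN13160_c0_g1_i5 had 91.9 CPM (SD 18.8) at 1.34 g/L, beside 102 CPM (SD 30.5) at 0.67 g/L and 25.2 CPM (SD 3.85) at 2.68 g/L.

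Over the 12 transcripts, the median size of the log2 change was 0.33 for the step from 0.67 to 1.34 g/L and 1.34 for the step from 1.34 to 2.68 g/L. The upper step was the larger for 10 of the 12, and for 52.8% of all tested transcripts. A median of 15.7% of the log2 change had been reached at 1.34 g/L, with a range from -0.20% to 67.8%. The mean at 1.34 g/L lay between the other means for 8 of the 9 risers and 3 of the 3 falls. Since the 12 were chosen by the difference between those other means, this order is no test of a graded change. The exceptions to the larger upper step were the isoforms of 1118 and 808 bases, with log2 changes of 0.51 and 0.53 over the lower step and 0.29 and 0.25 over the upper. Among the 14 genes the upper step was the larger for 12, against 53.4% of all tested genes, with median sizes of 0.28 and 1.42.

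**Figure D3:**
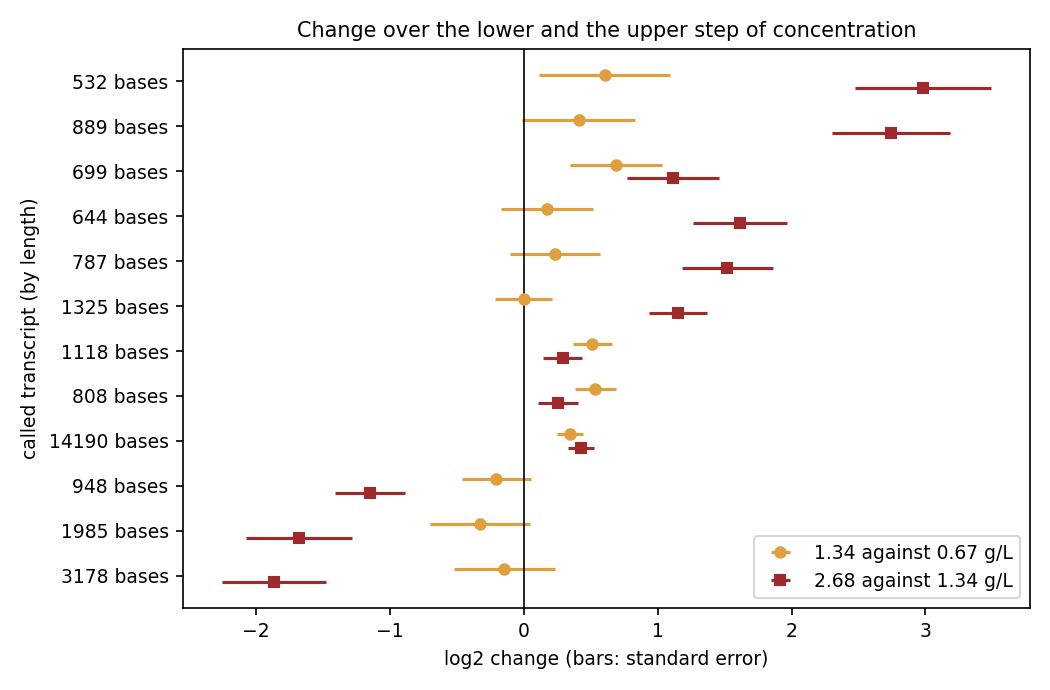
Log2 change of the 12 called transcripts, named by length, over the step from 0.67 to 1.34 g/L (circles) and from 1.34 to 2.68 g/L (squares), with standard errors as bars. The squares lie farther from 0 than the circles for 10 of the 12 transcripts, the exceptions being the isoforms of 1118 and 808 bases.

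The control, which takes no part in the difference, shows on which side of unexposed mysids the 2 concentrations lay. Because both comparisons with the control share libraries with the difference itself, their values are given side by side. All 12 transcripts lay farther from the control at 2.68 g/L than at 0.67 g/L, and all 12 were among the 119 called at 2.68 g/L against the control (0.434%). At 0.67 g/L against the control edgeR called 0 of 27420 (0.00%). At an unadjusted p under 0.05 the order was the reverse, with 2167 transcripts at 2.68 g/L and 2780 at 0.67 g/L against the control. For Trinity genes these numbers were 1873 and 2466. Summed to Trinity genes, edgeR called 160 genes at 2.68 g/L against the control (0.889%), among them 13 of the 14, and 62 genes at 0.67 g/L against the control (0.345%; 23 higher, 39 lower), among them 0 of the 14. For 6 of the 9 risers the level at 0.67 g/L was above the control and for 3 it was below, with log2 values from -0.68 to 0.37. For the 3 falls it was below the control.

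TRINITY_DN8241_c0_g1_i2 had 6.59, 8.04, 6.21, 7.74 and 4.10 CPM in the control libraries, a mean of 6.53 CPM against 4.37 CPM at 0.67 g/L. TRINITY_DN6098_c0_g1_i1 had a control mean of 11.2 CPM against 6.92 CPM at 0.67 g/L. For each of these 2 transcripts the log2 change from control to 2.68 g/L, 3.0 (SE 0.51) and 2.47 (SE 0.44), was smaller than that from 0.67 to 2.68 g/L. For TRINITY_DN13160_c0_g1_i5 the order was the reverse, with a control mean of 193 CPM (SD 112, n = 5) and a log2 change of -2.94 (SE 0.41) from control to 2.68 g/L, and for TRINITY_DN9575_c0_g2_i1 with a control mean of 2380 CPM (SD 944, n = 5) and a log2 change of -1.76 (SE 0.27). Of the 12, 11 are in the authors' deposited tables of 13326 transcripts. At 2.68 g/L against the control, the authors' deposited table gave log2 changes of 3.0 for TRINITY_DN8241_c0_g1_i2, 2.47 for TRINITY_DN6098_c0_g1_i1, -2.95 for TRINITY_DN13160_c0_g1_i5 and -1.76 for TRINITY_DN9575_c0_g2_i1.

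The unweathered leachate was tested over the same 4-fold range, from 0.27 to 1.08 g/L, in libraries that share none with the weathered 2.68 and 0.67 g/L groups. For transcripts and for genes, all 35 libraries share the estimate of the spread behind both tests, so the calls for the 2 leachates are not independent. Of the 12 transcripts, 7 were also called for the unweathered leachate (6 higher, 1 lower). They were 58.3% of the 12 and 13.7% of the 51 transcripts called for the unweathered leachate, which were 0.186% of those tested (0.153% higher, 0.0328% lower). The direction was the same for 11 of the 12, against 58.3% of all tested transcripts. Conversely, all 51 transcripts called for the unweathered leachate had the same direction between weathered 0.67 and 2.68 g/L, with median log2 changes there of 0.74 for the 42 rises and -0.56 for the 9 falls. Of the 12, the number called for the unweathered leachate was 2 when its compared groups were fitted alone, and between 4 and 7 with 1 unweathered library left out. It was 4 without replicate 2, 3 or 5 at 0.27 g/L.

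In unweathered leachate, TRINITY_DN8241_c0_g1_i2 had 10.4, 3.03, 3.68, 31.4 and 7.92 CPM at 0.27 g/L and 54.1, 38.8, 73.9, 68.5 and 30.2 CPM at 1.08 g/L. The groups overlapped through replicate 4 at 0.27 g/L, with a log2 change of 2.23 (SE 0.49, edgeR's adjusted p 0.0466). TRINITY_DN6098_c0_g1_i1 had 15.6, 6.90, 7.83, 21.8 and 7.65 CPM at 0.27 g/L and 52.4, 69.8, 77.1, 59.8 and 32.3 CPM at 1.08 g/L, without overlap, a log2 change of 2.28 (SE 0.43, edgeR's adjusted p 0.0130). TRINITY_DN9575_c0_g2_i1 fell there by 1.64 (SE 0.26) on the log2 scale, from a mean of 1610 to 516 CPM (edgeR's adjusted p 0.00519). TRINITY_DN13160_c0_g1_i5 had a log2 change of -1.65 (SE 0.39) and did not pass the test (edgeR's adjusted p 0.0700). For 11 of the 12 transcripts the mean at unweathered 1.08 g/L was within 1.5-fold of the mean at weathered 2.68 g/L, as it was for 81.1% of all tested transcripts.

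The difference between the 2 leachates' changes was tested directly, as the weathered change minus the unweathered one. In edgeR it called 0 of 27420 transcripts (0.00%; smallest adjusted p 0.714; 858 at an unadjusted p under 0.05; limma-voom called 0 and DESeq2 called 11) and 0 of 17990 genes (0.00%; 610 at an unadjusted p under 0.05; DESeq2 called 1). Among the 12 transcripts the difference ran from -2.03 to 1.36 in log2, and the 95% intervals reached between 0.28 and 1.38 to each side, so the data do not show that the 2 leachates act alike on them. For TRINITY_DN8241_c0_g1_i2 the difference was 1.36, with an interval from -0.02 to 2.73, and for TRINITY_DN6098_c0_g1_i1 it was 0.87, with an interval from -0.33 to 2.07.

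An unadjusted p under 0.05 for that difference was found for 3 of the 12, the isoforms of 1118, 808 and 1985 bases. The first 2 had log2 changes of 0.11 and 0.09 in unweathered leachate, where their means were already 355 and 348 CPM at 0.27 g/L, against 244 and 243 CPM at weathered 0.67 g/L. The low isoform of 1985 bases had a log2 change of 0.02 in unweathered leachate, with means of 0.431 CPM at 0.27 g/L and 0.435 CPM at 1.08 g/L. After adjustment over all transcripts none of the 3 differences passed, and the smallest adjusted p among them in edgeR rounded to 1.00.

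**Figure D4:**
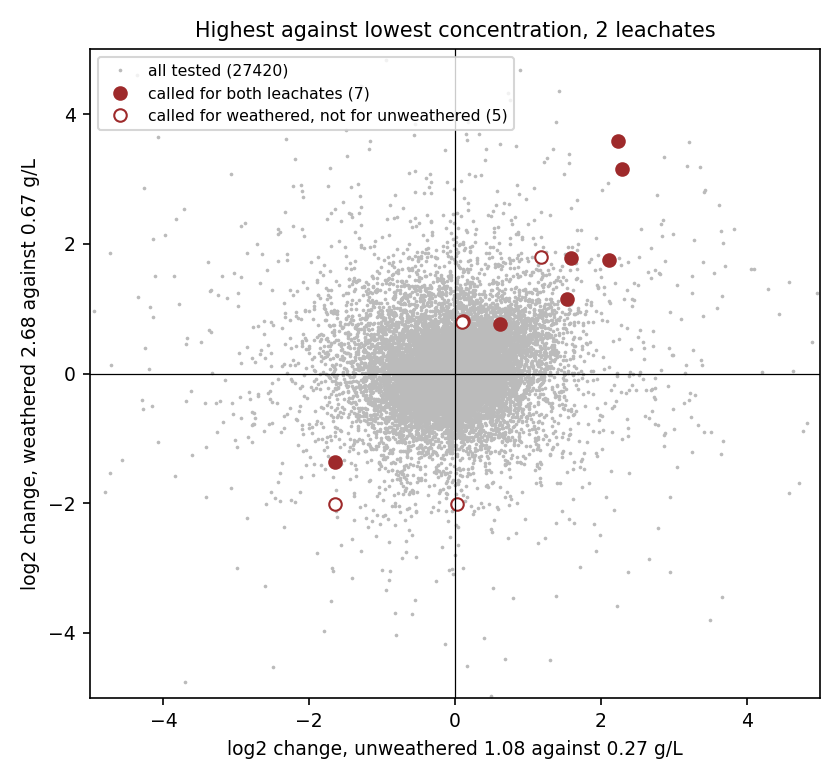
Log2 change of each tested transcript from 0.27 to 1.08 g/L of unweathered leachate (horizontal) and from 0.67 to 2.68 g/L of weathered leachate (vertical), with 231 points beyond 5 in either direction not drawn. The 7 transcripts called for both leachates (filled) lie in the upper right and lower left, and of the 5 called for the weathered leachate and not for the unweathered one (open), 3 lie close to the vertical line at 0.

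At the gene level 13 of the 14 called genes were also called for the unweathered leachate, 92.9% of the 14 and 12.7% of the 102 called there (0.567% of those tested). All 14 had the same direction, against 60.3% of all tested genes. The one not called was the gene of the isoforms of 1118 and 808 bases, with a log2 change of 0.06 in unweathered leachate. Of the 13, 8 to 12 were also called there with 1 unweathered library left out, with 8 without 0.27 g/L replicate 3 or 5 or 1.08 g/L replicate 3.

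Depth did not separate the groups at 2.68 and 0.67 g/L, whereas the make-up of the libraries did in 1 respect. Total estimated counts ran from 21541999 to 27765096 at 2.68 g/L and from 21127377 to 24905343 at 0.67 g/L (exact permutation test, two-sided, p = 0.413). Between 29340 and 30994 transcripts per library had at least 1 count, and TMM factors ran from 0.775 (0.67 g/L replicate 1) to 1.14. Each library's own 10 most abundant transcripts took 16.7% to 18.1% of the counts at 2.68 g/L and 18.6% to 22.6% at 0.67 g/L. The exact permutation test, two-sided, gave p = 0.00794 for this share, the smallest this design allows. Adjusted over the 4 library measures tested, it was 0.0317. A fixed set, the 10 transcripts with the highest mean share over the 10 libraries, was also compared. All 10 of that set had a lower mean share at 2.68 g/L, and 0 of the 10 were called (smallest edgeR adjusted p 0.588). The part of this difference in the 12 calls was not tested beyond the change of scaling, under which upper quartile factors called 11 transcripts, and leaving out 0.67 g/L replicate 1, which called 6, of which 3 were among the 12.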

How the data were processed

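The authors deposited 1 file per library with the estimated count and the TPM of each transcript, per the file headers. The submitters' processing notes name Trimmomatic 0.38, kallisto and DESeq2, without a kallisto version or an assembly. The authors also deposited tables of each exposed group against the control that hold, per the file headers, log2 changes and log2 mean levels, the score F of a test, and its p-value with and without adjustment, for 13326 transcripts whose choice is not stated. These values were used only where they are named as the authors'.

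Estimated counts were rounded to whole numbers, filtered with filterByExpr (minimum count 10, minimum total 15), which kept 99.86% to 99.95% of each library's counts, and scaled by TMM. A mean for each of 7 groups was fitted by edgeR 4.0.16 (R 4.3.3) over 35 libraries, for transcripts and for counts summed to Trinity genes. Standard errors are the log2 change over the square root of F. TPM values are the authors' and carry no TMM scaling. Alternatives used DESeq2 1.42.0, limma-voom (limma 3.58.1), other scaling, filter, libraries and block. The test on transcripts of the deposited tables only, the gene-level steps and the counts shared with the unweathered leachate were added after seeing the data. So was the gene-level difference between the leachates. The library measures were likewise not marked as planned.

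The comparison, the lists and the tests were chosen with earlier results of these data known. By rule, at most 2 rising and 2 falling transcripts were named by ID, those with the largest log2 change among called transcripts with a mean log2 CPM of at least 1 and groups that did not overlap. The transcripts told apart by length, and the called genes without a called transcript, were picked out after their values were seen.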

Additional observations from a re-analysis of the deposited data

Results flagged for a closer look

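In each group of 5 libraries, the highest and the lowest value were set against the nearest other value. A value was marked where that gap took more than 0.71 of the group's range. Chance would mark about 1 in 20 groups of independent, normally distributed values, and 7 of the 52 groups checked were marked. The CPM values were not put on a log scale, and many groups share libraries. The number marked can therefore not be set against that share.

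TRINITY_DN6098_c0_g1_i1 stood at 13.4 CPM in weathered 0.67 g/L replicate 3, where the next library had 6.12 CPM. TRINITY_DN8241_c0_g1_i2 stood at 31.4 CPM in unweathered 0.27 g/L replicate 4, where the next had 10.4 CPM. TRINITY_DN9575_c0_g2_i1 was marked in 2 groups, at 932 CPM in unweathered 1.08 g/L replicate 4 (next 456 CPM) and at 1901 CPM in weathered 1.34 g/L replicate 2 (next 1513 CPM). TRINITY_DN13160_c0_g1_i5 was also marked in 2 groups, at 84.9 CPM in unweathered 0.54 g/L replicate 5 (next 29.6 CPM) and at 31.8 CPM in weathered 2.68 g/L replicate 1 (next 24.7 CPM). The share of counts in the 10 most abundant transcripts was lowest in weathered 2.68 g/L replicate 2, at 16.7%, with 17.7% next.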

How the results depend on the processing

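None of the 12 called transcripts changed direction under any alternative run that tested it, and neither did a difference in the library measures. Counts of calls carry no mark for a change of direction. For 2.68 against 0.67 g/L, the 12 called transcripts became 73 with DESeq2 (11 of the 12 among them), 3 with no filter on low counts, 20 among transcripts of the deposited tables only, 0 with the compared groups alone and 3 to 9 with 1 library left out, while limma-voom called 10 and upper quartile scaling 11. The 14 genes became 40 with DESeq2, 4 with the compared groups alone and 6 to 19 with 1 library left out. For 2.68 against 1.34 g/L, the 2 transcripts became 46 with DESeq2, 4 with limma-voom, 4 among transcripts of the deposited tables only, 1 (a fall) with the compared groups alone and 0 to 4 with 1 library left out, and the 6 genes became 36 with DESeq2 and 2 to 10 with 1 library left out. For 1.34 against 0.67 g/L, the 0 transcripts became 18 with DESeq2 and 1 with the compared groups alone, and the 0 genes became 1 with DESeq2. For the difference between leachates, the 0 transcripts became 11 and the 0 genes 1 with DESeq2. The 3 genes with changed isoform shares became 0 with the compared groups alone and 0 to 2 with 1 library left out. The 7 transcripts called for the unweathered leachate too became 2 with the compared groups alone and 4 to 7 with 1 library left out, and the 13 genes 8 to 12. The difference in transcripts detected, 508.2 in all 10 libraries, ran from 353.3 to 753.55 with 1 left out, the latter without 2.68 g/L replicate 5, where the exact permutation p was 0.0397. Leaving out libraries or the filter on low counts changes the number of samples or of tests by construction. For the other settings the cause was not tested.

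TRINITY_DN8241_c0_g1_i2, TRINITY_DN6098_c0_g1_i1 and the transcript of 14190 bases were called in 16 of 17 alternatives, the exception being the compared groups alone, where the largest edgeR adjusted p of the 3 was 0.0957. None of the 12 was called in all 17. Whether the replicate numbers pair the samples is not stated in the labels. Deviations of same-numbered libraries at 2.68 and 0.67 g/L had correlations from -0.17 to 0.19, with 1 of 5 over 0.1. At 2.68 g/L, 1 of 5 libraries correlated best with its own number. These correlations cannot tell whether a number marks a shared tank or day. With the number as a replicate block, edgeR called 6 transcripts for 2.68 against 0.67 g/L, 4 for 2.68 against 1.34 g/L and 0 genes with changed isoform shares. With 5 libraries per group, a change that missed the threshold may still be present.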
